A study of Sus scrofa with 48 samples.

Results

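The livers compared here were those with the highest and the lowest expression of interferon-stimulated genes in a set of growing pigs. Every one of 48 liver arrays was given an interferon score, the mean z-score of IFIT1, IFIT3, ISG15, MX1, MX2, OAS1, RSAD2 and USP18 over the 48 arrays, and the 16 arrays of highest score were set against the 16 of lowest score, so that 32 of 48 arrays entered the comparison and 16 intermediate arrays did not. Each array carried the RNA of 1 liver from a purebred Large White barrow of a line divergently selected for residual feed intake (RFI), the part of feed intake that growth and fatness do not predict. All pigs were killed at the same age and had been fed a high-fat high-fibre (HF) or a low-fat low-fibre (LF) diet, which gave 4 groups of 12: low RFI line on HF (labelled HF_RFIneg), high RFI line on HF (HF_RFIpl), low RFI line on LF (LF_RFIneg) and high RFI line on LF (LF_RFIpl). No pig is described as infected or treated, so the score is a measured state of each liver and not a condition of the study. The arrays were chosen by measured values, and every difference of a gene between high and low arrays below is therefore a description. It is given without a p-value and often with its standard error (SE). The adjusted P threshold that sorts and counts these genes is descriptive too.

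Interferons are secreted proteins that cells release on sensing viral or other foreign nucleic acid. Type I and type III interferons bind their receptors and, through the kinases JAK1 and TYK2, activate a transcription factor complex that includes STAT2 and IRF9 and switches on a large set of antiviral genes. Type II interferon (interferon gamma, from T and NK cells) is the stronger inducer of antigen presentation. The liver meets microbial products that drain from the gut, and both its hepatocytes and its resident macrophages, the Kupffer cells, can mount this response.

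ISG15, a small ubiquitin-like protein that is attached to other proteins after interferon exposure, was read by 2 probes of 60 bases whose sequences, taken from the scanner output, share an exact stretch of 43 bases. They are shown because ISG15 had the widest difference of the score genes other than OAS1, and capitals mark that exact stretch. The probes differ at the base after it and then match again to the end of O11065.
A_72_P441219: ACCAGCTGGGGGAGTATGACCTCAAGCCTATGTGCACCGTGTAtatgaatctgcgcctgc
O11065: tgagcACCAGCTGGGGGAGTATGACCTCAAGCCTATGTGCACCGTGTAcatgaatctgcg
The mean difference between high and low arrays was 4.47 on the log2 scale for the first probe and 4.51 for the second. Since they read nearly the same stretch of the transcript, they are not independent readings of it.

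The score ran from 1.79 in HF_RFIneg 3 to -1.40 in HF_RFIneg 9, both of the low RFI line on the HF diet. The high arrays ended at 0.57 (LF_RFIpl 3) and the next array, LF_RFIneg 10, had 0.49. The low arrays began at -0.64 (LF_RFIpl 12) and the intermediate array just above had -0.61 (HF_RFIneg 11). Neither boundary lay at a break in the scores. The widest gap between neighbouring arrays, 0.40, lay between rank 18 at 0.43 and rank 19 at 0.03, with 18 arrays above and 30 below it, and the next widest gap was 0.21.

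**Figure D1:**
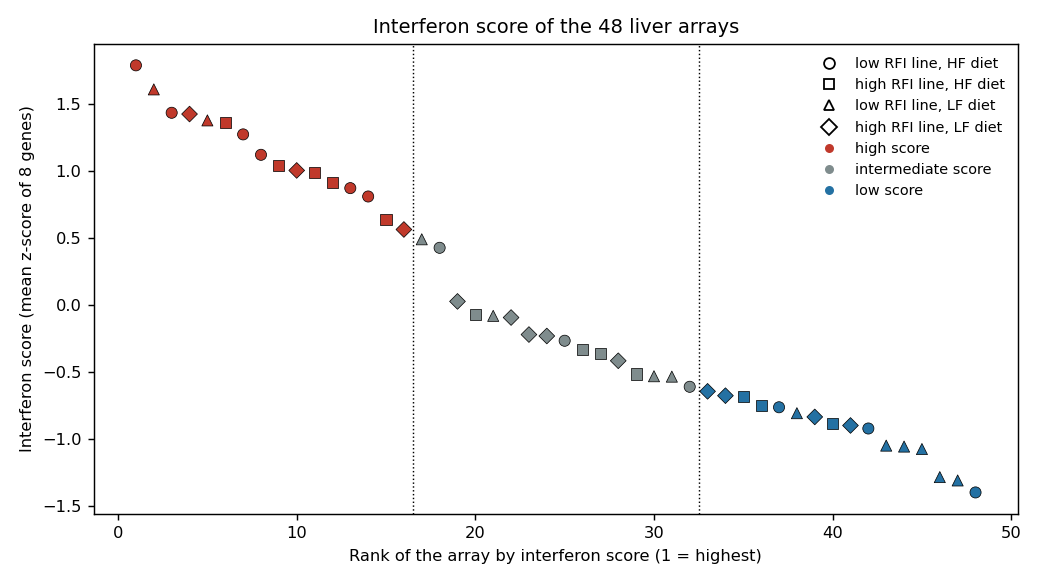
Interferon score (mean z-score of 8 genes, vertical axis) against the rank of the 48 liver arrays (horizontal axis, 1 is the highest), with symbols for line and diet and colours for high, intermediate and low arrays. The dotted lines mark the 16 highest and 16 lowest arrays; the scores fall without a break at either line, and the widest gap is between ranks 18 and 19.

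Both lines supplied high and low arrays in near equal numbers, with 8 high and 9 low arrays from the low RFI line and 8 high and 7 low arrays from the high RFI line. The diets were less even. The HF diet gave 11 high and 6 low arrays and the LF diet 5 high and 10 low arrays. Line and diet were covariates of every high against low difference. The arrays had been scanned on 2 days, 24 on each, and the first day held 12 of the high and 6 of the low arrays against 4 and 10 on the second. The 6 slides were uneven too, from 5 high and 1 low array on slide 1 to 1 high and 5 low arrays on slide 6. Median array intensity before centring was 5.81, 6.30 and 6.98 (lowest, median, highest, in log2) in high arrays and 5.95, 6.14 and 6.71 in low arrays. The score subtracts this median, so these values are a description and no p-value is given for them. The share of probes well above background was 68.8%, 71.1% and 77.2% in high arrays and 68.3%, 71.7% and 76.1% in low arrays (permutation test, two-sided, p = 0.525). The markers of the labelled tissue were present. The 17 hepatocyte genes tested of 21 listed were well above background on all 48 arrays and the probes of ALB and APOA1, which encode albumin and the main protein of high-density lipoprotein, were among the brightest on the array.

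All levels below are log2 signals relative to the array median, so that 0 is the median probe, and a level of one probe cannot be set against that of another. ISG15 had levels of 7.44, 8.50 and 9.27 (lowest, median, highest) in high arrays and of 2.96, 3.87 and 5.26 in low arrays. The groups did not overlap, and the mean difference of 4.47 (SE 0.22) is a fold-change (FC) of 22.2. USP18, the protease that removes ISG15 from its targets and dampens the interferon receptor, lay at 5.67, 6.32 and 7.21 against 2.31, 2.98 and 4.12, again without overlap (3.11, SE 0.18). IFIT1 binds viral RNA that lacks the host cap. It was at 4.49, 5.30 and 6.21 in high arrays and at 0.98, 1.75 and 2.38 in low arrays, a difference of 3.65 (SE 0.19, FC = 12.6). IFIT3, its partner, was at 4.70, 5.28 and 6.74 against 2.07, 2.84 and 3.16 (2.78, SE 0.18). RSAD2 (viperin) makes a chain-terminating nucleotide against viral polymerases. It was at 2.96, 4.38 and 6.09 against -0.80, 0.49 and 1.14 (4.13, SE 0.28). These 5 of the 8 score genes had every high array above every low array.

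The remaining 3 score genes overlapped between the groups. MX1, a dynamin-like GTPase that blocks incoming viruses, was at 4.40, 8.40 and 9.22 in high arrays and at 3.25, 5.05 and 6.29 in low arrays (2.97, SE 0.37). Its related GTPase MX2 had the smallest difference, 0.93 (SE 0.15, FC = 1.90), with -0.34, 0.50 and 1.65 against -0.997, -0.41 and 0.16. OAS1, which makes the 2-5A messenger of the antiviral response, was at 1.08, 6.67 and 7.80 against -0.45, 1.83 and 2.51, the widest mean difference of the score genes at 4.61 (SE 0.42, FC = 24.4). Over the 48 arrays, Pearson's r between pairs of score genes was 0.83 to 0.98 where MX2 was not one of the pair and 0.40 to 0.64 where it was. This is a description over arrays that share a normalisation, and the score was built from these genes.

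**Figure D2:**
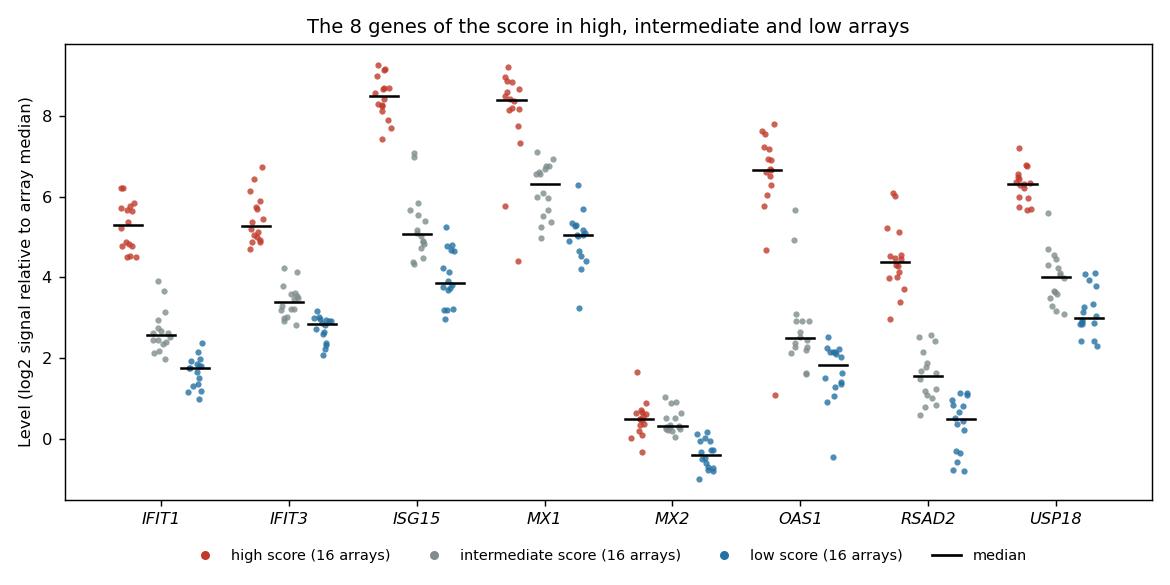
Level (log2 signal relative to the array median, vertical axis) of the 8 score genes in high, intermediate and low arrays, 16 each; each point is 1 array and the line is the median. ISG15, IFIT1, IFIT3, RSAD2 and USP18 do not overlap between high and low arrays, and single arrays lie far below their group for OAS1 and MX1.

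A few arrays stood apart on single score genes. LF_RFIpl 3, the high array of lowest score, had ISG15 at 7.44 and IFIT1 at 4.49 but OAS1 at 1.08, -0.70 and -5.89 on its 3 probes, the last of them not well above background. LF_RFIpl 11, a low array at rank 34, had OAS1 at -0.45, -2.25 and -5.08 on the same probes, the last again not well above background, with ISG15 at 4.68. On the last of these probes the lowest of the other 46 arrays was 2.10. HF_RFIpl 11, at rank 9, had OAS1 at 7.23 and ISG15 at 8.58 with MX1 at only 5.77. LF_RFIpl 3 also had the lowest MX1 of the high arrays, 4.40. Without LF_RFIpl 3, 3314 probes passed an adjusted P (Benjamini-Hochberg, P-BH) of 5% between high and low arrays, against 2771 with it.

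Neither line nor diet moved the score genes past the threshold when all 48 arrays were compared by the labels, which the score did not use. The limma model with line, diet and their interaction called 0 of the 8 genes for line and 0 for diet at a P-BH of 5%, and also 0 for either at an unadjusted 5%. Over all genes outside the score the same model called 3.83% for line and 0.558% for diet. The line difference (low minus high RFI) ran from -0.21 for USP18 to 0.77 for OAS1 (SE 0.64, limma P-BH = 0.669). Means were higher on the HF diet for all 8 genes, by 0.06 for MX2 (SE 0.15) up to 1.28 for OAS1 (SE 0.64, limma P = 0.0512, P-BH = 0.349). ISG15 had a mean of 6.62 ± 2.23 (SD, n = 12) in HF_RFIneg, 6.19 ± 1.97 in HF_RFIpl, 5.14 ± 2.14 in LF_RFIneg and 5.71 ± 1.63 in LF_RFIpl. The spread of ISG15 within every group was thus wider than the differences between the group means. The interaction of line and diet called 0 of the 8 genes.

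Outside the score genes, 10581 genes with a symbol were tested, each by its brightest probe. Between high and low arrays 321 genes were higher past a P-BH of 5%, which is 3.03% of those tested, and 359 were lower, which is 3.39%. The higher genes differed by more. Their median difference was 0.41 on the log2 scale and 47 of them were higher by at least 1, whereas the lower genes had a median of -0.33 and 5 of them were lower by at least 1. In 39 genes (0.369%) every high array lay above every low array, and in 0 genes (0%) did every high array lie below. The balance of higher and lower calls turned with the processing. Over all 2771 called probes 43.2% were higher, against 49.9% with quantile normalisation, 50.4% with another background correction and 56.1% without the filter on dim probes, and against 72.1% within the high RFI line and 92% within the second scan day, where fewer arrays were compared. Of the 321 higher genes 56 were in the lists of interferon response and antigen presentation, and of the 39 that did not overlap 23 were. Among the 10581 tested genes were 36 antiviral effectors, 19 receptor and signalling genes, 15 sensors and 6 chemokines of these lists. The other tested members were 21 class I genes, 10 class II genes, 4 PARPs, 1 ISG15 conjugation gene and 1 interferon. In a whole-tissue sample, fewer cells of a type and less RNA per cell cannot be told apart.

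The antiviral effector list held 52 genes, of which 36 were tested. High arrays were higher past the threshold for 28 of them and lower for 0, and the median difference over the 36 was 0.81 against -0.03 over all genes. ISG20, an exonuclease that degrades viral RNA, was at 2.65, 4.25 and 4.70 in high arrays and at 0.22, 1.20 and 1.76 in low arrays (2.80, SE 0.20). RTP4, which inhibits replication of several viruses, was at 3.44, 4.17 and 4.97 against 1.14, 1.97 and 2.43 (2.42, SE 0.15). Neither gene overlapped between the groups. OAS2, the larger relative of OAS1, was at 7.12, 7.95 and 8.41 against 3.83, 6.06 and 6.81 (1.96, SE 0.20), and all 6 of its probes were higher. XAF1, a pro-apoptotic interferon target, differed by 2.28 (SE 0.19) with the groups touching, at a lowest high array of 3.34 and a highest low array of 3.40. EIF2AK2 encodes PKR, the kinase that halts translation on double-stranded RNA. Its levels were 3.59, 3.98 and 4.72 against 1.97, 2.44 and 3.17 (1.61, SE 0.12). The smallest differences that passed were those of PML (0.29, and 0.13 within the second scan day) and IFI30 (0.38). TNFSF10 (0.06), TRIM25 (0.08), GBP1 (0.56, SE 0.20) and SAMHD1 (-0.27) were among the 8 that did not pass.

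HERC5, the ligase that joins ISG15 to newly made proteins, was the one tested gene of 4 in the ISG15 conjugation list. Its levels of 1.84, 2.44 and 3.08 in high arrays did not overlap those of -0.89, -0.17 and 0.96 in low arrays (2.63, SE 0.15). All 4 tested members of the PARP list, ADP-ribosyltransferases of the interferon response, were higher. PARP12 differed by 1.89 (SE 0.11), PARP14 by 1.71 (SE 0.15), PARP9 by 1.55 (SE 0.11) and PARP10 by 0.46 (SE 0.08). The first 3 of these did not overlap between high and low arrays.

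Among 15 tested sensors of foreign nucleic acid, 5 were higher and 0 lower, with a list median of 0.20. They included the cytosolic receptors of viral RNA. DDX58 (RIG-I) was at 0.78, 2.02 and 3.05 in high arrays and at -1.02, -0.24 and 0.67 in low arrays (2.37, SE 0.20). IFIH1 (MDA5), which reads long double-stranded RNA, differed by 1.61 (SE 0.10). DHX58 (LGP2), the regulator of both, was at 1.89, 2.24 and 2.96 against 0.13, 0.42 and 0.84 (1.89, SE 0.10). ZBP1, a sensor of Z-form nucleic acid, differed by 1.77 (SE 0.14) and the endosomal TLR3 by 0.92 (SE 0.09). The first 4 did not overlap. The adaptors and DNA sensors did not pass, with MAVS at -0.17 and MB21D1 (cGAS) at 0.32.

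Of 19 tested receptor and signalling genes 4 were higher and 1 lower (median 0.08). IRF7, the transcription factor that amplifies interferon production, was at 4.001, 4.88 and 5.76 in high arrays and at 2.51, 2.94 and 3.41 in low arrays (1.98, SE 0.15, 4 of 4 probes). IRF9, the DNA-binding member of the complex, was at 2.99, 3.38 and 3.59 against 1.74, 2.31 and 2.80 (1.06, SE 0.08, 2 of 3 probes). Neither gene overlapped between the groups. STAT2, its partner, differed by only 0.24 (SE 0.07), and 5 of its 7 probes passed. The receptor chains IFNAR1 (-0.01, SE 0.09) and IFNAR2 (-0.02, SE 0.07) and the factor IRF3 (0.10, SE 0.09) did not pass. TYK2 was the gene lower past the threshold (-0.78, SE 0.19), but through 1 of its 5 probes, the other 4 lying between -0.11 and 0.02. TYK2 lost its call with 24 against 24 arrays (-0.48), within either line and within either scan day (-0.66 and -1.39).

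The interferons themselves were unevenly detected. The array held 22 probes for 16 interferon genes, and 4 of the probes were well above background on no array. IFNB1, the first interferon made by most infected cells, was well above background on 2 of 48 arrays by its best probe, 0 of them high, and IFNA1 on 3 (1 high, 1 intermediate, 1 low). IFNG, the type II interferon, passed on 12 high, 10 intermediate and 13 low arrays, and its difference was -0.15 (SE 0.22). Probes for IFN-ALPHA-10, IFN-DELTA-1, IFN-DELTA-6, IFN-DELTA-9 and IL29 were well above background on all 48 arrays. Their differences between high and low arrays are not reported here. IFN-ALPHA-4 was so on 4 high and 4 low arrays and IFN-DELTA-2 on 6 high and 5 low arrays.

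Class I antigen presentation was the other list with many higher genes. High arrays were higher for 13 of 21 tested genes and lower for 0, with a median of 0.52. B2M, the light chain of every class I molecule, was at 9.50, 9.82 and 9.98 in high arrays and at 8.33, 9.27 and 9.42 in low arrays, without overlap (0.59, SE 0.09), on 10 of 10 probes. The immunoproteasome subunits, which replace the standard catalytic ones and favour peptides that class I can bind, differed by 1.30 for PSMB8 (SE 0.22), 1.16 for PSMB9 (SE 0.16) and 0.52 for PSMB10 (SE 0.09). Their activator PSME2 differed by 0.64 (SE 0.07) without overlap. TAP1, a subunit of the transporter that carries peptides to class I, was at 4.68, 5.31 and 5.63 against 3.50, 4.42 and 5.10 (0.86, SE 0.14). Its partner TAP2 differed by -0.04 on its brightest probe, although 4 of its 5 probes were higher past the threshold. Swine class I heavy chains were higher by 0.59 (SLA-3) to 0.81 (SLA-5), and a probe that carries the human name HLA-B by 0.91 (SE 0.24). Within the second scan day SLA-5 differed by 0.40, SLA-3 by 0.17 and PSMB10 by 0.35. These heavy chains are near-identical, polymorphic genes, and their probes may share transcripts. None of the 10 tested class II genes passed, and their median was 0.06, with the invariant chain CD74 at 0.15 and SLA-DRA at 0.11.

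Some genes of these lists also differed between the lines, at a background of 3.83% of all genes. Over 48 arrays, HLA-B was lower in the low RFI line by a difference of -1.05 (limma P-BH = 0.00287), SLA-8 by -0.52 (limma P-BH = 0.0164) and PSMB10 by -0.32 (limma P-BH = 0.0428). CANX, a chaperone of class I folding, was higher in the low RFI line by 0.19 (limma P-BH = 0.0397). Of the antiviral effectors, SAMHD1 (-0.32, limma P-BH = 0.0148) and TRIM25 (0.42, limma P-BH = 0.0161) differed by line, and 0 differed by diet. Neither SAMHD1 nor TRIM25 was among those that passed between high and low arrays.

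CXCL10, a chemokine that draws T cells to tissue, was the one of 6 interferon chemokines past the threshold, at 5.02, 5.83 and 7.07 in high arrays and at 3.39, 4.43 and 5.54 in low arrays (1.41, SE 0.19). CXCL9 (0.93, SE 0.34) and CXCL11 (0.27, SE 0.22), which share its receptor, did not pass. T and NK cells carry that receptor. None of 15 tested markers of these cells passed, and their summed linear signal, in multiples of the array median, was 84.9 to 105.5 in high arrays and 83.1 to 109.1 in low arrays. For 14 Kupffer cell and macrophage markers the sums were 210.7 to 437.2 against 251.8 to 467.9, with 0 genes past the threshold. B cell (7 tested), dendritic cell (5), neutrophil (7), stellate cell (10), cholangiocyte (7) and erythroid (5) markers also gave 0 genes. Of 11 endothelial markers, PECAM1 alone passed (0.30, SE 0.09), at 0.42 within the first scan day and 0.06 within the second. The hepatocyte list summed to 9825 to 14810 in high arrays and 11180 to 15180 in low arrays.

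**Figure D3:**
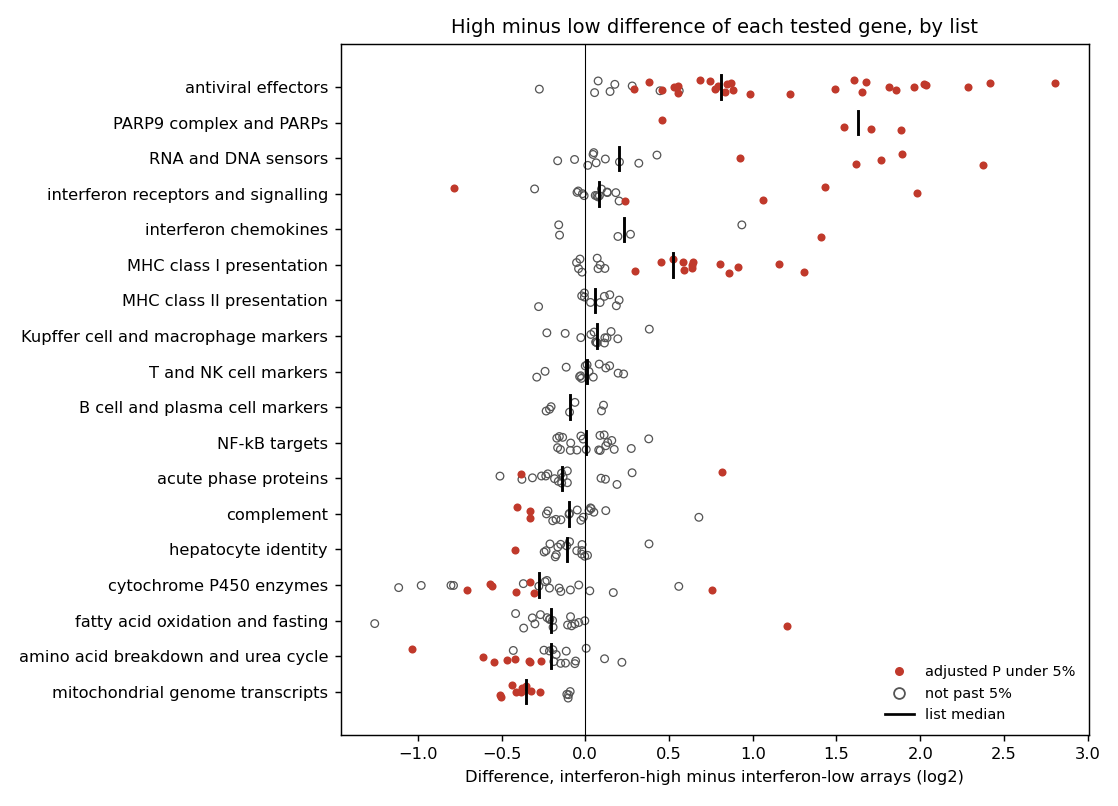
Difference of each tested gene between high and low arrays (log2, horizontal axis) for 18 lists of genes (vertical axis); filled points passed an adjusted P of 5%, open points did not, and the bar is the list's median. Antiviral effectors, PARPs and class I presentation lie to the right, macrophage and lymphocyte markers straddle 0, and the transcripts of the mitochondrial genome all lie to the left.

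Several of the widest differences belonged to genes outside the lists. Outside the score genes TRIM46 had the widest of all (3.32, SE 0.17), but this came from 1 probe that carries a locus number in the scanner output, and its second probe differed by -0.16. CDHR4, a cadherin-related gene, differed by 2.74 (SE 0.25) with both probes higher, at -0.28, 1.22 and 2.46 in high arrays and at -2.27, -1.66 and -0.85 in low arrays. ISG12(A), a porcine member of an interferon-induced family of small mitochondrial proteins, was at 10.12, 10.70 and 11.07 against 7.42, 7.97 and 9.20 (2.41, SE 0.17). None of these 3 overlapped between groups. Among the non-overlapping genes outside the lists, and picked after its values were seen, was TREX1, an exonuclease that removes cytosolic DNA, which differed by 1.77 (SE 0.18).

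All 359 genes lower in high arrays overlapped between the groups. NR0B1, an orphan nuclear receptor, had the largest such difference (-1.20, SE 0.30, 2 of 3 probes), at -1.88, -0.04 and 1.48 in high arrays and at -0.94, 1.38 and 2.60 in low arrays. The transcriptional co-regulators CITED1 (-1.11, SE 0.23) and CITED2 (-0.72, SE 0.18, 4 of 5 probes) were both lower. ARG2, the mitochondrial arginase, was at -0.12, 1.27 and 2.96 against 1.17, 2.33 and 3.06 (-1.03, SE 0.30). LGR5, a receptor of Wnt signalling found on hepatocytes around the central vein, differed by -1.02 (SE 0.22). ACAA2, the last enzyme of mitochondrial fatty acid oxidation, was at 4.47, 5.67 and 6.72 against 5.63, 6.53 and 6.96 (-0.96, SE 0.15). PPP1R3B, which directs a phosphatase to glycogen, differed by -0.81 (SE 0.20). This difference and that of ARG2 were wider on the first scan day, at -1.29 for PPP1R3B and -1.55 for ARG2. Within the second day, with 4 high and 10 low arrays, ARG2 differed by -0.14, PPP1R3B by 0.32, LGR5 by -0.45 and CITED1 by -1.81. Calls of lower genes were often lost. Over 22 alternatives of the processing, the arrays and the score, NR0B1 lost its call in 5, CITED1 in 3, ARG2 in 4, LGR5 in 2, ACAA2 in 2 and CITED2 in 6, and PPP1R3B was lost in 4 and reversed in 1. With 24 against 24 arrays NR0B1 (-0.73), CITED2 (-0.50) and PPP1R3B (-0.48) were lost, and with the slide as a block NR0B1 (-1.04), ARG2 (-1.07), PPP1R3B (-0.68) and CITED2 (-0.68). ARG2 was also lost without HF_RFIneg 1 (-0.96), HF_RFIneg 4 (-0.97), LF_RFIneg 1 (-0.95), LF_RFIneg 6 (-0.89) or LF_RFIpl 6 (-0.93). Of the 12 widest higher genes outside the score, OAS2 alone lost its call in any of these alternatives, within the second scan day.

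Of 23 tested cytochrome P450 genes 6 were lower and 1 higher, with a median of -0.28. CYP2A19, a drug- and odorant-oxidising enzyme of pig liver, was at 7.13, 8.11 and 8.52 against 6.44, 8.81 and 9.25 (-0.71, SE 0.19), and all 7 of its probes were lower. Its call was lost with normexp background correction (-0.61), with the deposited values (-0.59), with 24 against 24 arrays (-0.41), within the high RFI line and within the second scan day (-1.34). CYP2A7, which stood outside the list, differed by -1.04 (SE 0.21) and was lost with 24 against 24 arrays (-0.57), within the high RFI line and within the second scan day (-1.71), and probes of this near-identical family may share transcripts. CYP2C42 was the gene that was higher (0.75, SE 0.17), by 0.14 within the second scan day. Of 17 hepatocyte identity genes 1 was lower and 0 were higher. In the acute phase list of 19 genes, PIGR, the receptor that carries antibodies into bile, was higher (0.82, SE 0.15; 0.49 within the second scan day) and A2M lower (-0.39, SE 0.09; -0.25 within the first), while CRP (-0.51), FGA (-0.38), SAA1 (-0.32) and HAMP (0.12) did not pass. Complement gave 3 lower genes of 19, among them C8B (-0.41, SE 0.08, and -0.26 within the second scan day), a component of the lytic pore, and CFI (-0.33, SE 0.08), a protease that inactivates complement. None of 21 targets of NF-kB, the factor that drives inflammatory cytokines, passed (median 0.01), and IL6 (0.27) and IL1B (-0.17) were among them. Sterol synthesis (18 tested), lipogenesis (14) and endoplasmic reticulum stress (10) gave 0 genes either way. FGF21, a fasting and stress hormone of the liver, was the one gene of 18 in the fatty acid oxidation and fasting list past the threshold (1.21, SE 0.32, 1 of 2 probes), at 0.80 within the first scan day and 2.23 within the second. FGF21 ran against its list. The other 17 genes had differences below 0, none of them past the threshold. The list median was -0.20, and 0.03 within the high RFI line.

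A further 5 lists were drawn up after these differences had been seen and only describe them. Of 13 protein-coding transcripts of the mitochondrial genome 9 were lower, 0 were higher, and the median was -0.36. All 7 subunits of complex I that this genome encodes were among the 9. ND4 was at 8.82, 9.11 and 9.50 in high arrays and at 9.22, 9.62 and 9.85 in low arrays (-0.44, SE 0.07, 10 of 11 probes), ND5 differed by -0.51 (SE 0.08, 3 of 3 probes) and ND1 by -0.27 (SE 0.06, 20 of 20 probes). CYTB, of complex III, differed by -0.36 (SE 0.07, 21 of 21 probes). The cytochrome oxidase transcripts did not pass on their brightest probes, with COX1 at -0.09 (SE 0.05, 0 of 25 probes). The list median was -0.37 within the first scan day and -0.53 within the second.

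Enzymes that break down amino acids gave 8 lower genes of 22 and 0 higher (median -0.20). HPD, of tyrosine breakdown, was at 3.95, 4.43 and 4.83 against 4.49, 5.05 and 5.37 (-0.54, SE 0.08, 4 of 5 probes). PCCA, a subunit of propionyl-CoA carboxylase, differed by -0.61 (SE 0.11) and ASS1, of the urea cycle, by -0.47 (SE 0.12). In methionine metabolism 3 of 10 genes were lower, among them BHMT (-0.67, SE 0.16) and GNMT (-0.61, SE 0.17), and in glucose and glycogen metabolism 3 of 14, with GBE1, the glycogen branching enzyme (-0.58, SE 0.13), beside PPP1R3B. Within the second scan day GNMT differed by -0.18, BHMT by -0.41, PCCA by -0.32, ASS1 by -0.72 and GBE1 by -1.07. Of 69 cytosolic ribosomal protein genes 9 were lower and 0 higher, and the list median of -0.05 lay near the -0.03 of all genes. RPL5 was the clearest of them, at 8.07, 8.31 and 8.57 against 8.39, 8.72 and 8.89 (-0.38, SE 0.05), on 19 of 19 probes.

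**Figure D4:**
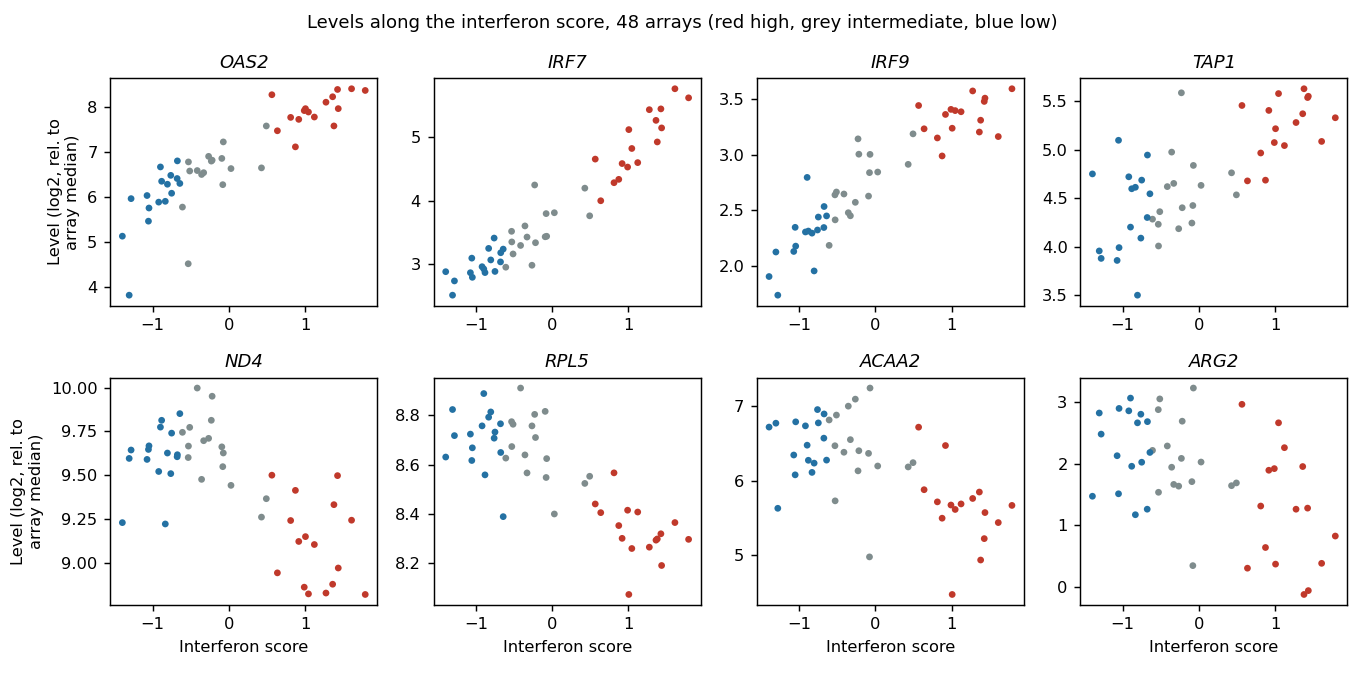
Level (log2 signal relative to the array median, vertical axes) against the interferon score (horizontal axes) in 48 arrays for 4 genes that were higher in high arrays (top row) and 4 that were lower (bottom row); red, grey and blue points are high, intermediate and low arrays. OAS2, IRF7 and IRF9 separate red from blue completely, while for TAP1 and the 4 lower genes the groups overlap.

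The 16 intermediate arrays took no part in the high against low comparison, and their scores, from -0.61 to 0.49, still varied. A limma model with line and diet was fitted over these arrays. It gave 13 probes not named as score genes a slope on the score past a P-BH of 5%, all positive. Past an unadjusted 5% were 2057 of 45208 probes, a share under 5%. The score was itself measured on these arrays, so the slopes only describe genes that vary with the score genes. By the brightest probe per gene, 2 genes passed a P-BH of 5%, or 0.0189% of those tested. DHX58 had a slope of 0.85 per unit of score (SE 0.11, limma P-BH = 0.00363) and a second probe at 1.20, IFI44L a slope of 1.17 (SE 0.18, limma P-BH = 0.0170), and IFI44 passed on its second probe alone at 1.46 (SE 0.17, limma P-BH = 0.00308). The other 9 probes had no symbol, and 1 of them shared a run of 25 bases or more with a probe of a score gene. Probes of the same transcript need not overlap, so more of the 9 may read score genes, which was not tested. A probe among them had a slope of 2.19 and a high minus low difference of 4.51, beside 2.17 and 4.51 for ISG15 probe O11065. Another had 1.545 and 3.62, beside 1.546 and 3.68 for a probe of IFIT1. The count of 13 probes was fragile. It was 0 with the slide as a block, 2 without HF_RFIneg 5, 31 without LF_RFIneg 10 and 121 with another background correction, of which 69 were positive. Slopes were positive for 32 of 36 antiviral effectors (median 0.43), 19 of 21 class I genes (median 0.26) and 0 of 13 mitochondrial transcripts (median -0.34), against 4772 of 10581 genes (median -0.02).

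**Figure D5:**
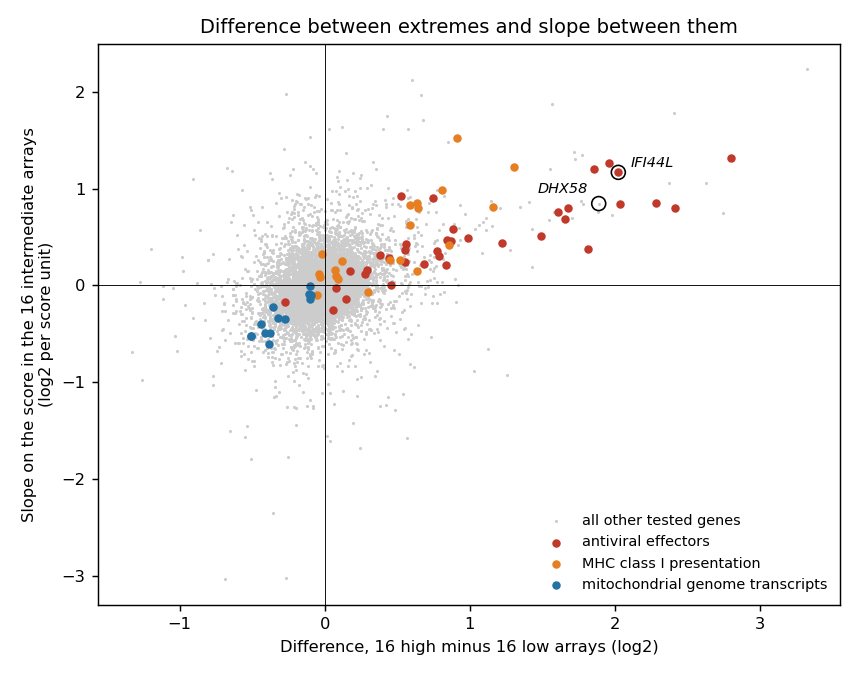
Slope on the interferon score in the 16 intermediate arrays (log2 per unit of score, vertical axis) against the difference between the 16 high and 16 low arrays (log2, horizontal axis), 1 point per gene outside the score. Antiviral effectors (red) and class I genes (orange) lie mostly above 0 on both axes and the mitochondrial transcripts (blue) below 0 on both; the ringed genes DHX58 and IFI44L passed an adjusted P of 5% in the intermediate arrays.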

How the data were processed

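The study hybridised Cy3-labelled liver RNA of 48 pigs to 1-colour Agilent arrays (6 slides of 8), 1 pig an array. The authors deposited scanner output of Feature Extraction 10.7.3.1, whose processed intensity is background-subtracted, and a log2 table that their methods describe as quality-filtered and median-centred in R 2.10.0 (submitters' processing notes). Here the deposited processed intensity was taken as log2 and centred on each array's median in R 4.3.3. Control spots were removed, 483 outlier spots were set to missing and 0 spots were saturated. Of 60305 probes, 45236 that were well above background on at least 12 of 48 arrays were tested. Symbols came from the scanner output (16991 probes), the accessions in a reference table (6966) or the probe's own identifier (731), and 35617 probes had none. RSAD2 carries its older name IRG6 in the scanner output. The probe of highest mean level stood for a gene, and the number of its probes that passed is given for some of the genes.

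High and low arrays were compared with limma 3.58.1 (lmFit and eBayes, line and diet as covariates). P-values were adjusted by Benjamini-Hochberg over all tested probes with a threshold of 5%. Line, diet and their interaction were fitted to all 48 arrays. Simulated data with known differences were used to check the fit. The number of arrays limits the precision. The members and lists were chosen with earlier results of these data known. The genes named were the score genes, members of the interferon and presentation lists, the extremes of every other list, the 12 widest differences in each direction and those past the threshold in intermediate arrays, with exceptions stated. Some genes that these rules name are not reported here. Alternatives changed the centring, background correction, filter, slide, scan day, covariates, score and group size, and left out each array.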

Additional observations from a re-analysis of the deposited data

How the results depend on the processing

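The count of 2771 probes past the threshold between high and low arrays was 4496 with the score as a continuous variable over 48 arrays. With the slide as a block it was 1938. It was 979 within the low RFI line, 587 within the high RFI line, 1425 within the first scan day and 174 within the second. Fewer arrays were compared in these last 4. Leaving out 1 array gave 2050 to 3314. The 13 probes of the intermediate arrays became 8 with centring on the 75th percentile, 20 with quantile normalisation, 121 with normexp, 115 with the deposited log2 values, 25 with probes well above background on all 48 arrays and 0 with the slide as a block, and 2 to 31 when 1 array was left out (28 without LF_RFIneg 4); the cause was not tested. The counts of 0 score genes for line and diet stayed 0 under all 8 alternatives run for each. Of 35 lists, 11 had a median that moved by more than the spread between arrays. They were the PARPs (1.10 with normexp, 1.25 with the deposited values, 1.12 with 24 against 24 arrays, 1.94 and 1.30 within the low and high RFI lines), the sensors (0.06 with normexp, 0.33 and 0.47 within the scan days), antiviral effectors (0.59 with 24 against 24 arrays), class I presentation (0.35 within the second day), mitochondrial transcripts (-0.53 within the second day), and, as ranges over the alternatives, HERC5 as the ISG15 conjugation list (1.91 to 3.09), interferon chemokines (0.07 to 0.63), Kupffer cell markers (-0.0028 to 0.35), cholangiocyte markers (-0.51 to 0.23), the clock list (-0.070 to 0.076) and the score genes (2.50 to 3.88). PPP1R3B reversed to 0.32 within the second day. No paired analysis was possible because the replicate numbers follow the order of the samples and pair none of them.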

Other observations

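One intermediate array parted the antiviral genes from those of antigen presentation, and it was singled out after its values were seen. LF_RFIpl 8 held rank 24 of the score (-0.23), with ISG15 at 5.04 (rank 26 of 48) and OAS1 at 2.27 (rank 28). Its levels of GBP1 (5.40), GBP2 (3.63) and PSMB9 (5.83) were nevertheless the highest of all 48 arrays, and TAP1 (5.59) ranked 2. GBP1 and GBP2 are guanylate-binding proteins, known as strong targets of interferon gamma. The highest of the other 15 intermediate arrays had GBP1 at 3.90 and GBP2 at 2.31. CXCL10 was at 5.71 (rank 11) and CXCL9 at 2.59 (rank 9), while B2M was at 9.21 (rank 31).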
